A study of Mus musculus with 2 samples.

Results

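Chaperone and protein folding genes were compared between skin cells that did and did not stain for the zinc importer ZIP10. The members are all gene symbols of the deposited table that begin with Hspa, Hspb, Hspd, Hspe, Hsph, Dnaja, Dnajb, Dnajc, Cct or Pdia followed by a digit, or with Hsp90. The rule uses names and no measured value, and it found 86 of the 23233 genes listed. Both groups came from ventral skin of wild-type C57BL/6 mice aged 7 days. The tissue was digested overnight in the cold, and cells stained with an antibody against ZIP10 and with 7-AAD, a dye of dead cells, were sorted into ZIP10-positive and ZIP10-negative populations. From each population 1 library of polyadenylated RNA was sequenced in single reads of 50 bases. The sample titles name hair follicles as the source, whereas the protocol describes a suspension of whole ventral skin with no gate on markers of single cell types. The labels do not give the number of animals or any pooling. With 1 library per group there is no replicate and no test, so every difference below describes these libraries.

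Chaperones bind unfolded or partly folded proteins and keep them from aggregating. HSP70 proteins work in cycles of ATP hydrolysis that J proteins, the DNAJ family, start and that HSP110 proteins and other exchange factors complete, and HSP90 takes over late steps for kinases, receptors and other clients. The CCT ring is a chamber of related subunits that folds actin and tubulin, HSP60 (Hspd1) and its lid HSP10 (Hspe1) form the chamber of mitochondria, and protein disulfide isomerases form disulfide bonds in the endoplasmic reticulum (ER). In skin, the small heat shock protein HSP27 (Hspb1) is known from differentiating keratinocytes, and ER chaperones serve cells that secrete collagen and other matrix.

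Values are in RPKM, read numbers scaled to transcript length and library size by the authors. Values tended to be higher in ZIP10-positive cells: the median of the 9620 genes at 1 RPKM or more in both libraries had a ratio of 1.97, a log2 ratio of 0.98. That gene is called the median gene here, and log2 ratios relative to it were computed after this shift was divided between the libraries and 1 RPKM was added to each value. Matching ratios of small values to whole reads and annotated lengths gave about 2.78e+06 reads for ZIP10-positive cells and 2.71e+06 for ZIP10-negative cells. Pairs of values are given in the order ZIP10-positive against ZIP10-negative. The 95% intervals below are exact binomial intervals of a ratio from read numbers at that depth and cover counting error only. As deposited, ratios also moved with transcript length, from a median of 2.87 in the shortest of 5 equal bins of genes to 1.38 in the longest, and with level, from 1.37 in the lowest of 5 bins to 2.52 in the highest. Summed RPKM of marker genes differed between the libraries for blood cells: 16378 against 283756 for 8 erythrocyte genes, 134 against 755 for 7 T cell genes, 1305 against 146 for 11 macrophage and monocyte genes, and 1646 against 15.8 for 8 neutrophil genes, in ZIP10-positive and ZIP10-negative cells respectively. In ZIP10-negative cells the table lists 0 for Lyz2, C1qa, C1qb, C1qc, Mrc1, S100a9, Ngp, Camp and Ltf among those genes, and in both libraries for Elane and Mpo. Of 8 basal keratinocyte genes the sums were 2360 and 800.1 RPKM, and of 8 dermal fibroblast genes 1254 and 1202 RPKM. All these sums are as deposited, without the shift to the median gene. After that shift the keratinocyte genes had a median log2 ratio of 0.28, with 6 above 0 and 2 below. The fibroblast genes then had a median of -0.85, with 2 above 0 and 6 below. The part of cell composition, transcript length or depth in any value below was not tested, except where a comparison with genes of similar length or level is given. In such bulk samples a smaller number of cells of a type and less RNA per cell cannot be told apart.

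Promoter sequences are shown for some members with stress elements upstream of their start. Such elements are known from chaperone genes that respond to heat or to unfolded protein in the ER, but a match does not define such a response. They come from RefSeq on build GRCm38.p6, while the submitters' processing notes name mm9, and a symbol of the table matched an entry for 71 of the 86 members; the others were Cct4, Dnajc11, Dnajc12, Dnajc18, Dnajc2, Dnajc22, Dnajc30, Dnajc5, Dnajc5b, Hsp90aa1, Hsp90ab1, Hspa13, Hspa8, Hspa9 and Hspb2. Each line gives bases upstream of the annotated start, 5′ to 3′ on the gene's strand, with the element in capitals. In Hspe1 the capitals mark overlapping heat shock elements (HSE, 3 units), in Hspa1a a heat shock element of 2 units, and in the others ER stress elements (ERSE).
Hspe1, chr1:55087998-55088147, plus strand: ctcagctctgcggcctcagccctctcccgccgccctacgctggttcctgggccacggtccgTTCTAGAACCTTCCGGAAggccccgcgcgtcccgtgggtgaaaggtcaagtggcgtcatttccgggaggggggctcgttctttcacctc
Hspa1a, chr17:34972157-34972306, minus strand: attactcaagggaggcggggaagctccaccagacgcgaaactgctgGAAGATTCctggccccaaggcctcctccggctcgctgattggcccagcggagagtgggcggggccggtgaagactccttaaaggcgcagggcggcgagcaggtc
Hspa5, chr2:34771970-34772089, plus strand: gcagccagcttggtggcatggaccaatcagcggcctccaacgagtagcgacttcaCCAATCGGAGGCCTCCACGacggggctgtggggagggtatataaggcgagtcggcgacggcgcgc
Hsp90b1, chr10:86705445-86705674, minus strand: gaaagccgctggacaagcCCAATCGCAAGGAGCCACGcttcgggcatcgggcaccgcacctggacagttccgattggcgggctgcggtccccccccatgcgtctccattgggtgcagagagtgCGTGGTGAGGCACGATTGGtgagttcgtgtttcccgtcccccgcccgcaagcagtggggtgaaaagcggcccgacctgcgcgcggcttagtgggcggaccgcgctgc
Pdia6, chr12:17266469-17266588, plus strand: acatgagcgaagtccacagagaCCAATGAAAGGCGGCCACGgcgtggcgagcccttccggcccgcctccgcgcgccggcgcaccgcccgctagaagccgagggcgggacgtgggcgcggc

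As a whole, chaperone genes followed the median gene, and the classes among them lay on either side of it. Of the 86 members, 71 had 1 RPKM or more in at least 1 library, and the other 15 were below that level. Relative to the median gene 7 of the 71 (9.86%) were at least 2-fold higher in ZIP10-positive cells, where 14.7% of the 12249 genes that passed the same filter were. At least 2-fold lower were 5 members (7.04%), against 11.4% of all genes. Both shares lay below those of all genes, and the median log2 ratio was 0.09 in the members and 0.09 in all genes. Of the 71 members 45 reached 10 RPKM in a library. Shares for all genes of such a level are not given, and the part of level in the lower shares was not tested. By any amount 43 members (60.6%) were above the median gene, against 54.5% of all genes, and 8 (11.3%) were lower in ZIP10-positive cells as deposited, against 17.3%. As deposited, 36 members were 2-fold or more higher and 0 lower, against 44.1% and 3.55% of all genes. The split of 7 higher and 5 lower became 3 and 9 when each library was scaled to its genes outside the 50 most abundant, and 3 and 13 when globin genes and Rn45s, the ribosomal RNA precursor, were left out of the scaling. These scalings lowered log2 ratios by up to 0.31 and 0.42, and by less in genes of low level, where the added 1 RPKM weighs more. All genes moved as well: their median became -0.16 and -0.24, where that of the members became -0.20 and -0.29. Shares of all genes under these scalings are not given, so the changed split is not particular to the members.

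**Figure D1:**
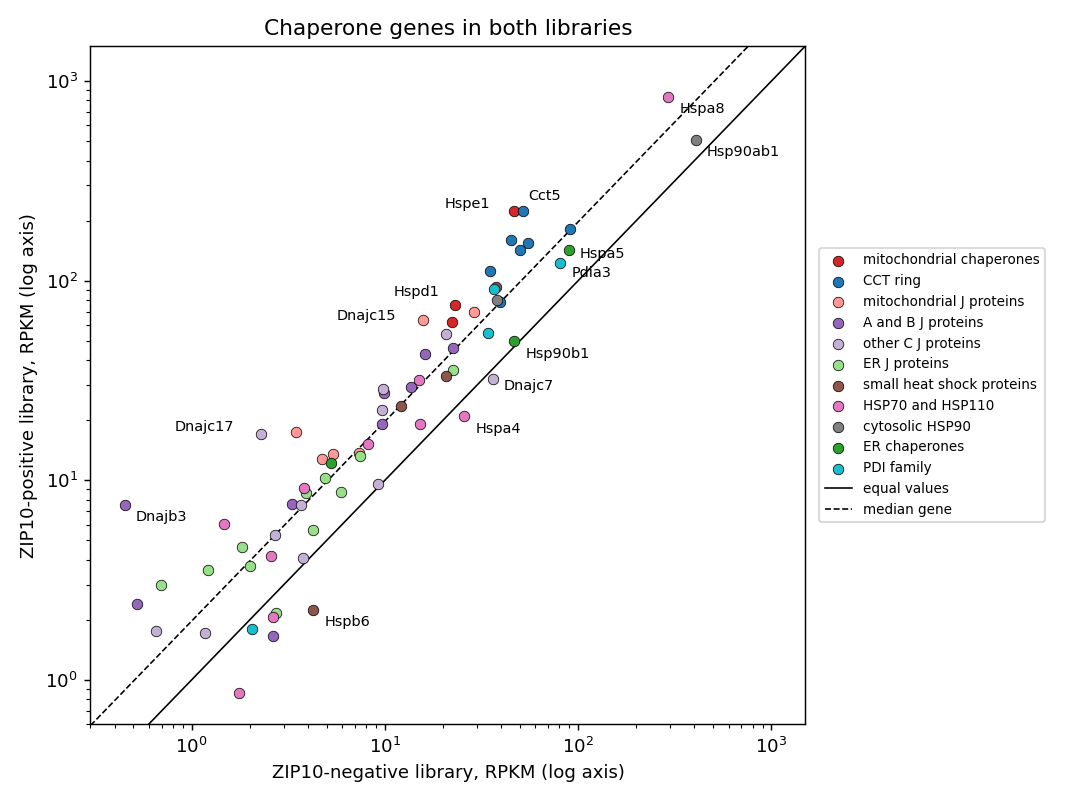
RPKM of the chaperone genes that reach 1 RPKM in either library, ZIP10-negative on the horizontal and ZIP10-positive on the vertical log axis, 1 point per gene coloured by class; Hspb2, listed at 0 in ZIP10-negative cells, is not drawn. The solid line marks equal values and the dashed line the ratio of the median gene, 1.97. As deposited, before any shift, 63 of 71 members had the higher value in ZIP10-positive cells.

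Counting intervals placed members on both sides of the median gene. The interval of the ratio lay above 1.97 for 18 of the 71 members (25.4%) and below it for 15 (21.1%), against 24.9% and 23.2% of 11077 genes of known length. For the other 38 members it held 1.97. Both shares were near those of all genes. Read numbers depend on the annotated length, and with the smallest whole reads that give the same ratio the interval would hold 1.97 for 3 of the 18, Dnaja2, Dnajc9 and Dnajc16, and for 4 of the 15, Pdia4, Dnajc18, Hspa1l and Hspa4l. Among the 38 it would lie above 1.97 for Dnaja3, at 2.15 to 3.37, and for Hspa12b, at 2.08 to 8.73.

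**Figure D2:**
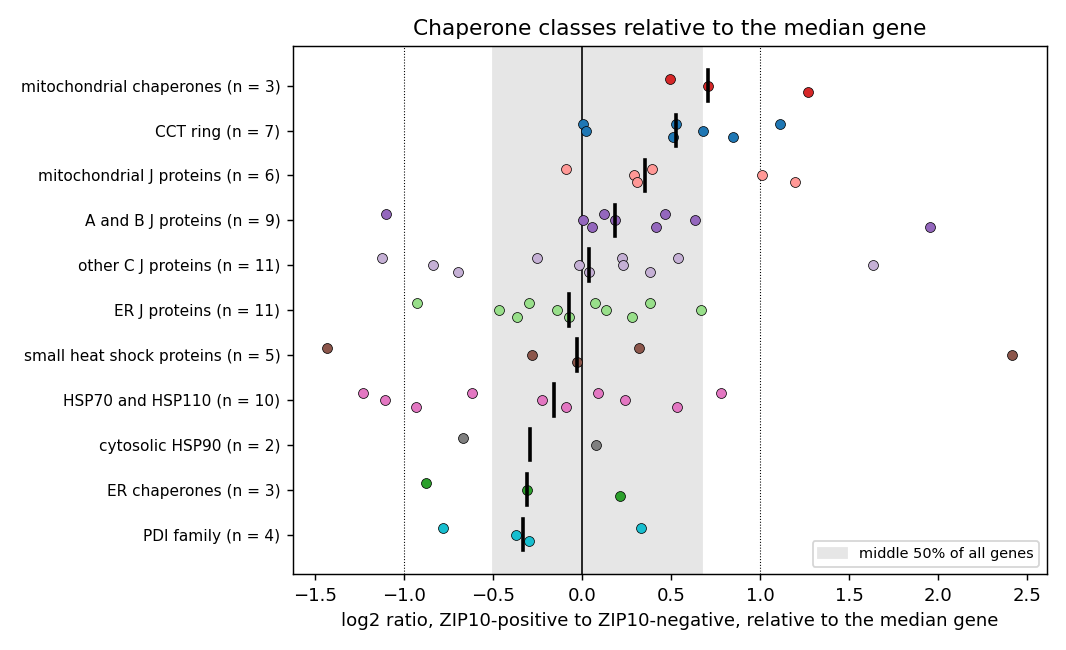
Log2 ratio of ZIP10-positive to ZIP10-negative cells relative to the median gene, 1 point per chaperone gene that reaches 1 RPKM in either library, by class; thick bars are class medians, the grey band holds the middle 50% of all genes and dotted lines mark 2-fold. Class medians ran from 0.71 in mitochondrial chaperones to -0.33 in the PDI family.

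The mitochondrial chaperones were the class farthest above the median gene, with a median log2 ratio of 0.71 over its 3 genes. This median stayed above 0 in all 12 alternatives computed, between 0.30 and 1.66. Changes of the filter kept the same 3 genes and could not move it. Hspe1, the HSP10 lid, stood at 222 against 46.4 RPKM, a ratio of 4.79 (95% interval 3.72 to 6.29). Hspd1, the HSP60 chamber, stood at 75.6 against 23.2 RPKM, a ratio of 3.26 (2.69 to 3.97). Hspa9, the mitochondrial HSP70 that also drives protein import, stood at 62.3 against 22.2 RPKM, a ratio of 2.81 (2.35 to 3.35). All 3 intervals lay above the ratio of the median gene, while only Hspe1 was 2-fold above it. Hspe1 has a short transcript of 774 bases, a length at which ratios of all genes were high. Against genes of similar level and length the log2 ratios of Hspe1, Hspd1 and Hspa9 were 0.64, 0.58 and 0.57.

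Hspd1 and Hspe1 lie head to head, and a promoter window of each overlaps the other on opposite strands of chromosome 1, at 55087883 to 55088182 and 55087898 to 55088197. The capitals in the Hspe1 line above are upstream of these starts of both genes, but downstream of another annotated start of Hspd1, whose window is at 55088194 to 55088493. The HSE lies at -89 to -72 from the start of Hspe1 and at -144 to -127 from the first of the Hspd1 starts. Both genes were above the median gene, and their intervals overlapped.

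Mitochondrial J proteins had a median of 0.35 over 6 genes, which turned to -0.02 without globin genes and Rn45s in the scaling. Of the 6 genes 2 were higher by 2-fold or more and 0 lower, against 14.7% and 11.4% of all genes. Dnajc15, a J protein of the inner membrane, stood at 63.9 against 15.8 RPKM, a ratio of 4.06. Its annotated transcript of 6193 bases gives 1065 and 256 reads and an interval of 3.54 to 4.67, but whole reads of 79 and 19 already give this ratio, with an interval of 2.43 to 7.09, so its precision is uncertain. Dnajc4 stood at 17.5 against 3.47 RPKM, a ratio of 5.04 (2.27 to 13.7) from only 37 and 7 reads. Both lay above the median gene by their intervals. The others were near it: Dnajc19, a subunit of the import motor, stood at 69.7 against 28.8 RPKM, Dnaja3, a partner of Hspa9, at 12.8 against 4.75, Dnajc30 at 13.5 against 5.39 and Dnajc11 at 13.6 against 7.39. For Dnaja3 the smallest whole reads that give its ratio are 300 and 109, with an interval of 2.15 to 3.37 above the median gene. Dnajc28 was under the filter, at a listed 0 and 0.233 RPKM.

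The CCT ring was above the median gene with a median of 0.53 over 7 subunit genes. Of the 7 genes 1 was higher by 2-fold or more and 0 lower, against 14.7% and 11.4% of all genes. Cct5 stood at 223 against 52.0 RPKM, a ratio of 4.29 (3.72 to 4.97). Cct6a stood at 159.95 against 44.8 RPKM, with a ratio of 3.57 (3.12 to 4.1), and Cct7 at 112 against 35.2 RPKM, with 3.19 (2.68 to 3.81). Cct3 and Cct2 followed closely, at 143 against 50.2 and 155 against 54.9 RPKM, with ratios of 2.86 and 2.82. These 5 subunits had intervals above the median gene. Cct4 and Cct8 did not, at 181 against 90.4 RPKM, a ratio of 2.01 (1.79 to 2.25), and at 78.0 against 39.4 RPKM, a ratio of 1.98 (1.66 to 2.38). The subunits enter the ring in equal number, yet the intervals of Cct5 and Cct6a did not overlap those of Cct4 and Cct8. Tcp1, the remaining ring subunit, which the naming rule leaves out, stood at 143 against 55.9 RPKM, a ratio of 2.56. Cct6b and Cct8l1, known from testis, were listed at 0 in both libraries.

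By level within a library, Cct5 was the most abundant subunit in ZIP10-positive cells and Cct4 in ZIP10-negative cells, and Cct8 was the lowest in ZIP10-positive and Cct7 in ZIP10-negative cells. The position of the ring above the median gene depended on the reference. Abundant genes had higher ratios, and against genes of similar level the median of the class was -0.03. Against genes of similar length it was 0.47, and against genes of similar level and length 0.30, with 4 subunits above 0 and 3 below. Proteasome subunits, another set of abundant genes for large complexes, gave 39 of 40 genes that passed the filter, of which 10 were 2-fold or more higher and 0 lower, where 14.7% and 11.4% of all genes were, and their median of 0.44 became 0.02 against genes of similar level.

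ER chaperones and disulfide isomerases lay below the median gene, with medians of -0.31 over 3 and -0.33 over 4 genes. Both medians stayed below 0 in every alternative except the values as deposited, where they were 0.66 and 0.63. For the ER chaperones, changes of the filter kept the same 3 genes and could not move the median. None of these 7 genes was 2-fold higher or lower than the median gene, where 14.7% and 11.4% of all genes were. Hspa5, the ER HSP70 known as BiP, stood at 142 against 89.2 RPKM, a ratio of 1.59 (1.45 to 1.75). Hsp90b1, the ER HSP90 known as GRP94, stood at 49.6 against 46.8 RPKM, a ratio of 1.06 (0.909 to 1.23). Near-equal values in both libraries placed Hsp90b1 at a log2 ratio of -0.88 relative to the median gene and lower still against genes of similar level and length. Hspa13, a smaller HSP70 of microsomes, stood at 12.3 against 5.25 RPKM, and its interval of 1.66 to 3.4 held the median gene.

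Among the isomerases, Pdia3, known as ERp57 and the partner of calreticulin and calnexin, stood at 123 against 80.9 RPKM, a ratio of 1.52 (1.37 to 1.7). Pdia4, known as ERp72, stood at 54.8 against 34.3 RPKM, a ratio of 1.6 (1.34 to 1.91). Both were below the median gene by these intervals, while for Pdia4 whole reads of 159 and 97 give 1.23 to 2.08, which holds it. Pdia6 differed from them, at 91.0 against 36.6 RPKM, and its ratio of 2.49 (2.11 to 2.95) was above the median gene and above the intervals of Pdia3 and Pdia4. With globin genes and Rn45s left out of the scaling Pdia6 turned to -0.08. Pdia5 was low in both libraries, at 1.79 and 2.06 RPKM, and Pdia2, known from pancreas, was listed at 0 in both.

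ER J proteins were mixed, with a median of -0.07 over 11 genes. Of the 11 genes 0 were 2-fold higher or lower, where 14.7% and 11.4% of all genes were. The class median was 0.75 as deposited and also above 0 against genes of similar level, of similar length and of both, at 0.05, 0.10 and 0.11. Dnajb11, the abundant partner of BiP known as ERdj3, stood at 35.8 against 22.5 RPKM, a ratio of 1.59 (1.25 to 2.06). Dnajc10, an ER reductase, stood at 13.2 against 7.46 RPKM, and Dnajb12, a membrane protein of ER-associated degradation, at 10.3 against 4.92 RPKM, both with intervals that held 1.97. Dnajc1 and Dnajc18 had intervals below the median gene, at 2.17 against 2.73 and 5.64 against 4.23 RPKM, and Dnajc16 had one above it, at 3.001 against 0.695 RPKM. The other 5 were under 10 RPKM in both libraries, with intervals that held the median gene.

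**Figure D3:**
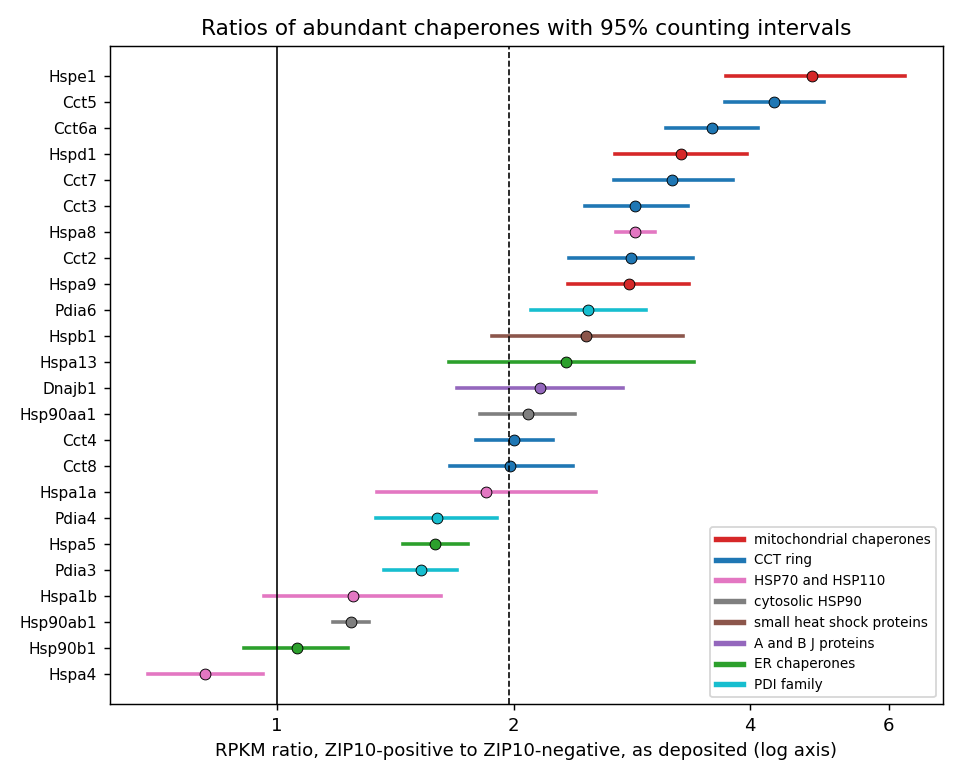
Ratio of RPKM in ZIP10-positive to ZIP10-negative cells as deposited, log axis, for the mitochondrial, CCT, HSP90, ER and PDI genes that reach 10 RPKM in either library and 6 cytosolic genes; points are ratios and bars 95% counting intervals, the solid line marks 1 and the dashed line the median gene. Hspe1, at 4.79, and Cct5, at 4.29, are at the top, and Hsp90b1, at 1.06, and Hspa4, at 0.809, are at the bottom.

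The cytosolic HSP70 and HSP110 genes spread from -1.23 to 0.78, with a median of -0.16 over 10 genes. By 2-fold or more 0 of them were higher and 2 lower, against 14.7% and 11.4% of all genes. As deposited the class median was 0.67. Hspa8, the constitutive HSP70, was the most abundant chaperone gene of ZIP10-positive cells, at 837 against 293 RPKM, and its ratio of 2.85 (2.7 to 3.02) was above the median gene. Against genes of similar level Hspa8 stood at -0.02 on the log2 scale. Hspa4, an HSP110-type exchange factor, went the other way at 20.9 against 25.8 RPKM, a ratio of 0.809 (0.685 to 0.96), and was the lowest of all members at 10 RPKM or more. Its relative Hspa4l was also lower, at 0.857 against 1.76 RPKM, while the third HSP110 gene, Hsph1, stood at 4.17 against 2.59 RPKM with an interval that held the median gene. Hspa14, an HSP70 of the ribosome, stood at 31.7 against 15.1 RPKM, close to the median gene. Hspa12a was under the filter, at 0.130 and 0.399 RPKM.

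Of the heat-inducible genes of the cytosol, Hspa1a, Hspa1b and Dnajb1 are described here. They were far less abundant than Hspa8 in both libraries, and none of them had an interval above the median gene. Hspa1a stood at 15.1 against 8.21 RPKM, a ratio of 1.84 (1.34 to 2.55) that held the median gene, and Hspa1b at 19.1 against 15.2 RPKM, a ratio of 1.25 (0.962 to 1.62) below it. Hspa1a and Hspa1b are near-identical, so their reads can be divided between them and each single value is uncertain. Dnajb1, the inducible J protein HSP40, stood at 29.5 against 13.6 RPKM, and its interval of 1.7 to 2.75 held the median gene. Genes that respond to tissue dissociation are given beside these values, 14 in number, among them Fos, Jun and Egr1. Of these 2 (Nr4a1 and Atf3) were 2-fold above the median gene and 3 (Fosb, Socs3 and Zfp36) 2-fold below it. The shares of all genes were 14.7% and 11.4%, and the list's median was 0.02. Their summed values were 458 against 271 RPKM, and their part in the values of the heat shock genes was not tested.

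The HSP90 genes of the cytosol differed from each other. Hsp90ab1, the constitutive form, stood at 506 against 407 RPKM, a ratio of 1.24 (1.18 to 1.31), below the median gene at a log2 ratio of -0.67. Hsp90aa1, the inducible form, stood at 79.8 against 38.3 RPKM, a ratio of 2.09 (1.81 to 2.4) at the median gene. The intervals of the HSP90 genes did not overlap. Hsp90ab1 was the most abundant chaperone gene of ZIP10-negative cells, where it exceeded Hspa8, and the second of ZIP10-positive cells. Hspa8, Hspd1, Hspe1 and the HSP90 genes have processed pseudogenes, and their values are uncertain as far as reads were shared with these.

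Small heat shock proteins had 5 of 8 genes above the filter and a median of -0.03, which was 0.90 as deposited. Of the 5 genes 1 was higher by 2-fold or more and 1 lower, against 14.7% and 11.4% of all genes. Hspb1, HSP27, stood at 92.5 against 37.4 RPKM, a ratio of 2.47 (1.88 to 3.29). Hspb8, which acts with the cochaperone Bag3, stood at 23.4 against 12.1 RPKM, a ratio of 1.93 (1.38 to 2.74), and whole reads of 105 and 53 match both this ratio and its annotated length. Hspb11, a subunit of intraflagellar transport, stood at 33.4 against 20.7 RPKM. All 3 intervals held the median gene. Hspb6, HSP20, was lower at 2.24 against 4.27 RPKM, from about 7 and 13 reads. Hspb2, a muscle chaperone, stood at 6.09 RPKM in ZIP10-positive cells, with a listed 0 in the others. It overlaps Cryab, another small heat shock gene outside the naming rule, over 252 bases of exon on the opposite strand, and Cryab stood at 6.59 against 1.88 RPKM. Hspb3 and Hspb9 were listed at 0 in both libraries and Hspb7 was below the filter. Of the 71 members that passed, 26 have exons that overlap another annotated gene, and whether the counting used strand is not given in the sources used here, so such values are uncertain.

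J proteins of the cytosol and nucleus with A or B names had a median of 0.19 over 9 genes. The median turned to -0.07 when the 50 most abundant genes were left out of the scaling and to -0.16 without globin genes and Rn45s. Of the 9 genes 1 was higher by 2-fold or more and 1 lower, against 14.7% and 11.4% of all genes. Dnajb6, a suppressor of aggregation, stood at 46.3 against 22.5 RPKM, at the median gene. Dnaja2 and Dnaja1, the main partners of Hspa8, stood at 43.1 against 16.2 and 27.4 against 9.87 RPKM, with ratios of 2.66 (2.14 to 3.29) and 2.77 (2.24 to 3.46) above the median gene. For Dnaja2 whole reads of 79 and 29 already give this ratio, with an interval of 1.72 to 4.22 that holds it. Dnajb2 stood at 19.2 against 9.68 RPKM. The gene called higher was Dnajb3, known from testis, at 7.51 against 0.453 RPKM, a ratio that 17 reads against 1 already give, with an interval of 2.6 to 693. The gene called lower was Dnaja4, at 1.67 against 2.63 RPKM, and its exons share up to 1581 bases with Wdr61 on the opposite strand, at 45.0 against 16.6 RPKM. Dnajb13, Dnajb7 and Dnajb8 were listed at 0 in both libraries.

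Of the other J proteins with C names, which have varied roles, 1 of 11 was higher by 2-fold or more and 1 lower. The shares of all genes were 14.7% and 11.4%. These 11 genes had a median of 0.04. That median was below 0 in 5 of the 12 alternatives, at its lowest -0.31. Dnajc17, a protein of the spliceosome, had the highest ratio of all members at 10 RPKM or more, at 16.97 against 2.29 RPKM, a ratio of 7.41 (2.91 to 24.1) from 38 and 5 reads. Dnajc7, which links HSP70 and HSP90, was the lower gene, at 32.2 against 36.3 RPKM, a ratio of 0.886 (0.725 to 1.08) from about 191 and 210 reads. Relative to the median gene Dnajc17 stood at 1.64 on the log2 scale and Dnajc7 at -1.12. Against genes of similar level and length Dnajc17 was at 0.97, under 2-fold, and Dnajc7 at -1.26. Dnajc8, another splicing protein, stood at 53.8 against 20.8 RPKM, Dnajc9, a histone chaperone, at 28.7 against 9.80, and Dnajc5, the cysteine string protein of secretory vesicles, at 22.5 against 9.65. Of these Dnajc9 had an interval above the median gene, 2.01 to 4.34, which rests on its annotated length, since 3 reads against 1 give the same ratio. Dnajc2, a J protein of the ribosome, was below it at 9.60 against 9.24 RPKM. Dnajc22, Dnajc5b and Dnajc5g were listed at 0 in both libraries, and Dnajc6, the auxilin of neurons, was at 0.0729 and 0.0747 RPKM.

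**Figure D4:**
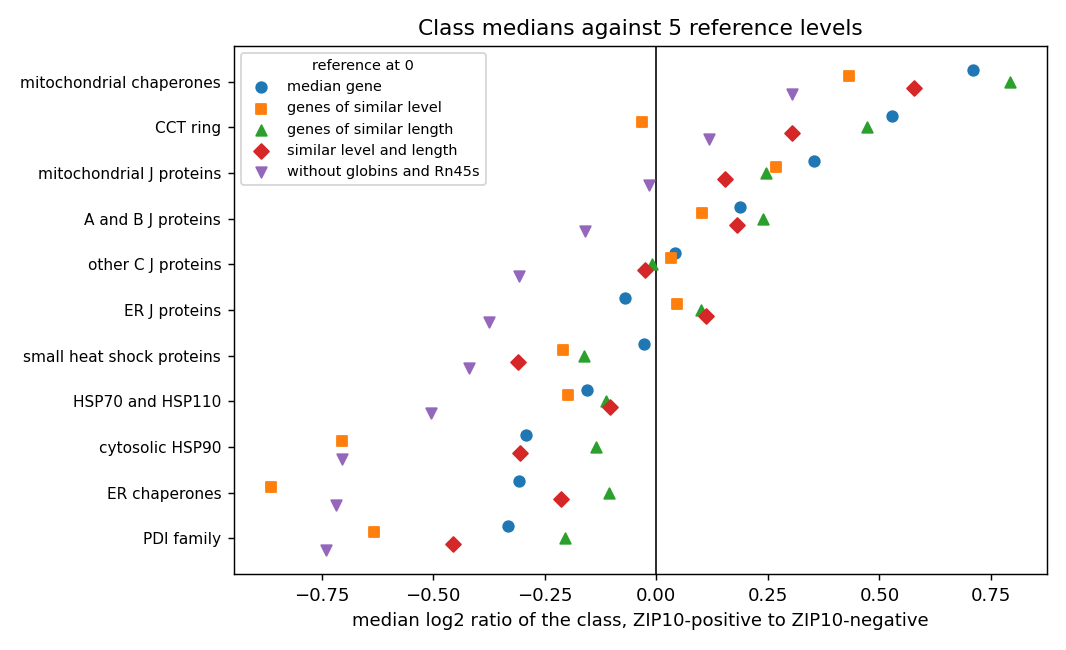
Median log2 ratio of each chaperone class, ZIP10-positive to ZIP10-negative, with 5 different references set to 0: the median gene, genes of similar level, of similar transcript length, of both, and a scaling without globin genes and Rn45s. Mitochondrial chaperones are above 0 and ER chaperones, the PDI family, HSP90, HSP70 and HSP110, and small heat shock proteins below 0 with all 5, while the CCT ring runs from 0.53 to -0.03.

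Partners of these chaperones outside the naming rule are given by lists. Of 24 cochaperones of HSP70 and HSP90 and heat shock factors above the filter, 2 were higher by 2-fold or more and 1 lower, against 14.7% and 11.4% of all genes, with a median of 0.34 that turned to -0.04 without globin genes and Rn45s in the scaling. Ptges3, the HSP90 cochaperone p23, stood at 134 against 46.5 RPKM, Fkbp4 at 108 against 42.4 RPKM and Bag1 at 87.2 against 47.6 RPKM. Bag5 was the highest and Bag6 the lowest by ratio among those at 10 RPKM or more, at 11.7 against 2.86 and 45.3 against 38.0 RPKM. Prefoldin hands actin and tubulin to the CCT ring. Its genes, other ring cofactors and the ring subunit Tcp1, given above, had a median of 0.49 over 9 genes. This median stayed above 0 in the 12 alternatives. Of the 9 genes 3 were higher by 2-fold or more and 0 lower, against 14.7% and 11.4% of all genes. Pfdn5 stood at 393 against 88.6 RPKM and Pfdn2 at 115 against 28.2 RPKM. Pdcl3, a phosducin-like cofactor, had the highest ratio, at 22.2 against 1.72 RPKM, and Pfdn4 the lowest, at 16.3 against 11.97 RPKM.

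Of 28 other genes of ER folding and the unfolded protein response, 3 were at least 2-fold higher and 2 lower, against 14.7% and 11.4% of all genes. Their median of 0.06 was near the 0.09 of all genes and took the other sign in 6 of the 12 alternatives. Calr, calreticulin, stood at 374 against 162 RPKM, Serpinh1, the collagen chaperone HSP47, at 322 against 200.3 RPKM and P4hb, the main disulfide isomerase, at 291 against 232 RPKM. Ppib, an ER cyclophilin, had the highest log2 ratio of those at 10 RPKM or more, at 338 against 65.7 RPKM, and Sdf2l1 the lowest, at 33.4 against 37.1 RPKM. Canx, the membrane-bound relative of calreticulin, stood at 126 against 127 RPKM, at -0.98 relative to the median gene where Calr was at 0.23. Among the other mitochondrial folding genes and proteases 0 of 11 were higher by 2-fold or more and 2 lower, where 14.7% and 11.4% of all genes were, with a median of -0.17 that was 0.60 as deposited. Clpp stood at 65.2 against 25.3 RPKM, Trap1, the mitochondrial HSP90, at 32.3 against 18.5 RPKM, Grpel1, the exchange factor of Hspa9, at 25.5 against 6.46 RPKM, and Hscb, a J protein of iron-sulfur cluster assembly, at 23.9 against 21.5 RPKM.

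Members with the elements shown above are described here by their ratios, with no test. Each motif was searched on both strands in windows of 300 bases, 250 of them before the start. The HSE of 3 units, GAA, TTC and GAA with 2 free bases between each, was found in 4 of 71 members, Hspe1, Hspd1, Hsph1 and Dnajb6, and in 0.662% of 27025 genes. Their log2 ratios relative to the median gene were 1.27, 0.71, -0.22 and 0.06. The ERSE, CCAAT and CCACG with 9 free bases between them, was found in 4 members, Hspa5, Hsp90b1, Pdia6 and Dnajc3, and in 0.137% of all genes. Their log2 ratios were -0.31, -0.88, 0.33 and -0.37, so Pdia6, with its ERSE at -98 to -80, lay on the other side of the median gene from the other three. Hsp90b1 has an ERSE at -212 to -194 and another, on the opposite strand, at -107 to -89. Shorter or related motifs were also counted: GAANNTTC, which is part of the HSE of 3 units, in 16 members and 9.04% of all genes, TTCNNGAA, also part of it, in 8 and 9.6%, the ERSE-II, ATTGG and CCACG with 1 free base between them, in 1 and 0.0444%, TGACGTGG in 1 and 0.714%, and CCAAT, which the ERSE contains, in 33 and 41.1%. A match describes letters only. The members named here at under 10 RPKM in both libraries, other than Hspb2 and Dnajc28, and Canx, Cryab and Wdr61 were chosen after their values were seen.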

How the data were processed

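RNA of 1 ZIP10-positive and 1 ZIP10-negative library was measured as 50-base single reads. The authors deposited 1 table of RPKM values per gene; Cufflinks, TopHat, cutadapt and the build mm9 are listed in the submitters' processing notes, while their versions, the annotation and the use of strand are not stated there. From these values log2((positive + 1)/(negative + 1)) was computed after the median shift was divided evenly between the libraries, over genes at 1 RPKM or more in at least 1 library, and a gene at 2-fold or more was called by size, since no test is possible. Reads for the exact 95% intervals were estimated as RPKM × (length − 199) × depth, with median transcript lengths from the GENCODE mouse annotation; 64.4% of 1389 low genes had whole-number ratios (numbers up to 20, tolerance 0.0012%), 35.8% of 335 genes with 1 annotated transcript fell within 1.4% of the most frequent depth, and for 12 of 57 members the estimated reads were within 5% of the smallest whole-number pair, so read numbers of single genes are approximate. At 10 RPKM and 2000 bases this gives 48.9 reads in the ZIP10-negative library. Members and lists were chosen with earlier results of these data known. Members at 10 RPKM or more may be named; in full were given the 3 most abundant per class and the 6 highest and 6 lowest ratios, and from pathway lists the 3 most abundant and the highest and lowest ratio. Python 3.11.15, pandas 2.3.3, numpy 2.4.6, scipy 1.17.1 and matplotlib 3.10.9 were used. The median shift and the 2-fold calls were tested on simulated data with known changes. The depth, the intervals, the whole-number pairs and the references of similar level or length were not. Pseudocount, filter, scaling and reference genes were varied. Marker sums not given in the report were, in ZIP10-positive and ZIP10-negative cells, 308 and 14.5 RPKM for mast cell, 245 and 144 for suprabasal keratinocyte, 284 and 201 for hair matrix and shaft, 287 and 204 for melanocyte and 8.18 and 3.67 for endothelial genes.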

Additional observations from a re-analysis of the deposited data

How the results depend on the processing

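With 1 library per group no alternative carries a test, and counting intervals say nothing of the spread between animals. No paired analysis was possible because each group has 1 library. No member at 10 RPKM or more that was 2-fold apart from the median gene changed sign under the alternatives run, whereas medians nearer 0 did, as given below. Against genes of similar level and length Cct5 (0.89), Hspe1 (0.64), Dnajc4 (0.67), Dnajc17 (0.97) and Hspa4 (-0.88) were under 2-fold. The alternatives with genes of similar length, and of similar level and length, were chosen after seeing the data. Shares of all genes are given only relative to the median gene and as deposited. At the other settings below the call rate of all genes can change too, so those counts are not set against all genes. The 7 higher and 5 lower members became 3 and 2 with a pseudocount of 5, and 13 and 13 at 1.5-fold. The lower count was 8 with a pseudocount of 0.1, 2 at 10 RPKM or more, and 8 with the median gene taken over genes at 10 RPKM or more, where the members' median was -0.048. The higher count was 4 against genes of similar level, 4 against genes of similar length and 3 against both. As deposited the counts were 36 and 0 and the median of all members 1.001; class medians were 0.67 for HSP70 and HSP110, 0.68 for HSP90, 0.66 for ER chaperones, 0.63 for the PDI family, 0.75 for ER J proteins, 1.66 for mitochondrial chaperones, 1.25 for mitochondrial J proteins, 1.495 for the CCT ring, 1.06 for A and B and 0.76 for other C J proteins, and list medians 1.22 for cochaperones, 1.36 for prefoldin, 0.92 for ER folding, 0.60 for mitochondrial folding and 0.97 for the dissociation response. Scaled to genes outside the 50 most abundant, the counts were 3 and 9, and the medians -0.20 for all members, 0.40 for mitochondrial chaperones and -0.074 for A and B J proteins. Scaled without globin genes and Rn45s, the counts were 3 and 13, and the medians -0.29 for all members, -0.70 for HSP90, 0.30 for mitochondrial chaperones, -0.16 for A and B J proteins, -0.043 for cochaperones and -0.33 for ER folding. Against genes of similar level the medians were -0.70 for HSP90, 0.43 for mitochondrial chaperones and -0.032 for the CCT ring. Scaling shifts all genes by construction; for the other differences the cause was not tested.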
